A study of Homo sapiens with 7 samples.

Results

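NGP is an established line of human neuroblastoma cells in which MYCN is amplified, and ARID1A encodes a DNA-binding subunit of the BAF chromatin remodelling complex. For a control line and 2 ARID1A-/- lines derived from NGP, RNA was sequenced once with a SMARTer kit (Universal Low Input) and once, in a repeat, with a KAPA kit (mRNA HyperPrep). These 6 of the 7 libraries of the series were compared here by kit, paired by cell line: 3 SMARTer libraries (control, ARID1A-/- line 1, ARID1A-/- line 2) against 3 KAPA libraries of the same lines. The 1 other library, of an ARID1A+/- line, was made with KAPA and entered no test. All lines grew in RPMI medium with fetal bovine serum and 0.5 µg/ml puromycin. The labels name each ARID1A-/- line by a number only and do not say whether it is 1 clone, nor whether a repeat came from a new culture. Kit, culture and sequencing run therefore cannot be told apart, and every difference below is a difference between the first libraries and their repeats. For the same reason the p-values measure the spread between these 3 pairs, which may be in part technical.

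Library kits choose RNA in different ways. A kit that primes RNA with random hexamers after removing ribosomal RNA can copy RNA with and without a poly(A) tail, whereas capture on oligo-dT beads keeps RNA that ends in poly(A). Replication-dependent histone mRNAs, which end in a stem-loop, and many small nuclear and nucleolar RNAs lack a poly(A) tail, and amplification steps are known to treat GC-rich and AT-rich fragments unequally. The labels state removal of ribosomal RNA for both kits and give the molecule as poly(A) RNA.

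The SMARTer libraries held 40724353 to 43644361 counts and the KAPA libraries 24445301 to 31865626. The 10 most abundant entries took 12.8% to 16.1% of the counts in SMARTer libraries and 7.7% to 8.5% in KAPA libraries. ARID1A was at 22.2, 16.7 and 14.2 RPKM (reads per kilobase of transcript, scaled to sequencing depth) with SMARTer in the control, line 1 and line 2, the order in which values of lines are given throughout, and at 22, 17.2 and 13.8 RPKM with KAPA, so the order of the lines was the same with both kits. Summed RPKM of 9 adrenergic neuroblastoma markers was 2256 to 4563 with SMARTer and 1281 to 1909 with KAPA. A large part of this sum is the amplified MYCN, alone at 1435 to 3663 RPKM with SMARTer and 606 to 1226 RPKM with KAPA. The sum of 9 fibroblast markers was 65.3 to 224 with SMARTer and 61.9 to 246 with KAPA. Of these 9, 7 had a mean of at least 0.5 RPKM, and FAP was at 0 in all 6 libraries. Schwann and neural crest markers summed to 3.44 to 52.4 and 1.70 to 34.4, epithelial markers to 2.42 to 3.13 and 2.22 to 2.66, and immune markers to 4.12 to 5.15 and 3.42 to 3.80. Endothelial and erythroid markers summed to less than 1 RPKM in each library.

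Of 28517 entries, 14711 had a mean of at least 0.5 RPKM over the 6 libraries and were tested with edgeR's quasi-likelihood test, with a term for the line and a Benjamini-Hochberg adjusted p below 0.05 as the call. In KAPA, 779 genes were higher (5.3% of those tested) and 1175 were lower (7.99%), 1954 in all (13.3%). Counts of called members in each list below are to be read against these shares. Of the called genes, 1953 differed in the same direction in 3 of 3 lines, against 54.3% of all genes tested, a direction that the test itself favours. Most called differences were small: the median size was 0.67 on the log2 scale, and 440 genes, 85 higher and 355 lower, differed by more than 2-fold. These counts include genes that passed the filter through the libraries of 1 kit only. RPKM of the kits did not overlap for 1165 called genes (59.6%), against 26.6% of all genes tested. The ARID1A+/- library, made with KAPA and used in no test, lay on the KAPA side of the midpoint between the kits for 66.9% of called genes and 56.0% of the others. The counts rest on the pairing and on the control: without the term for the line, and without the control pair, no gene was called (0 by edgeR, with 2173 and 3111 genes at an unadjusted p below 0.05), and without the line 2 pair 64 were higher and 257 lower. This holds for each gene and list below. With limma on log2(RPKM + 1) the split turned to 1971 higher and 609 lower, and after quantile normalization it was 764 and 792.

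**Figure D1:**
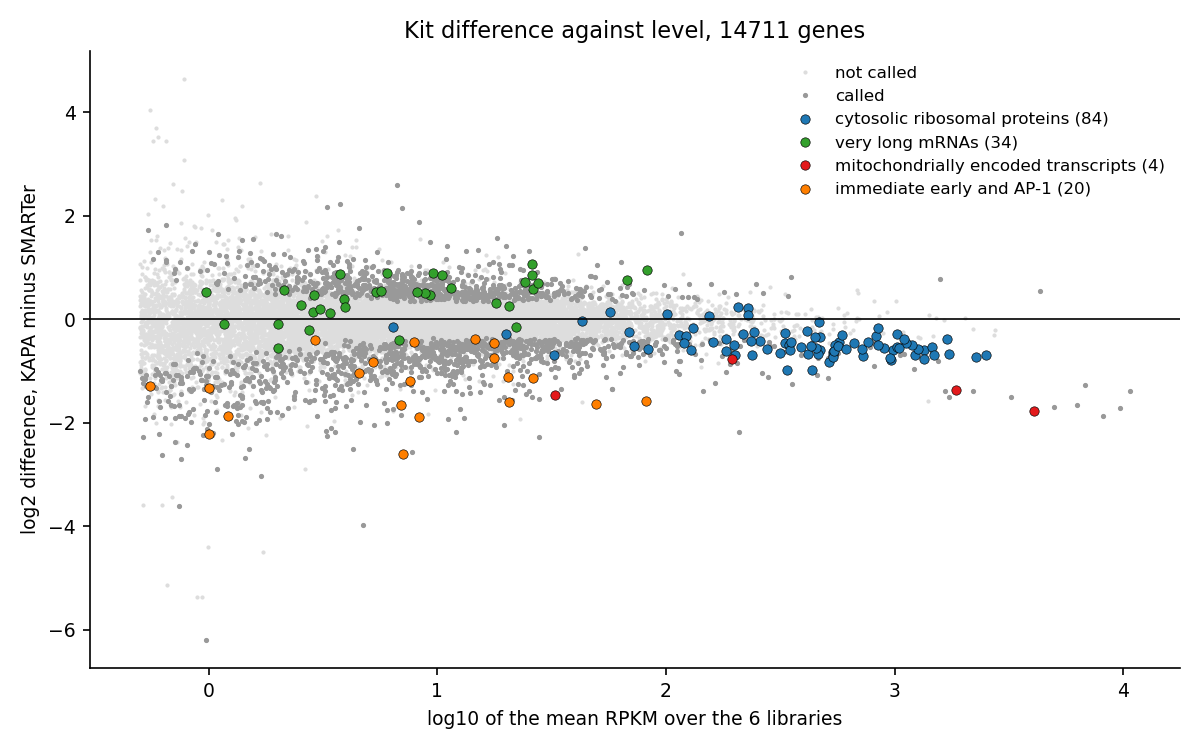
Log2 difference, KAPA minus SMARTer (vertical axis), against the log10 of mean RPKM over the 6 libraries (horizontal axis) for 14711 genes. Light dots were not called, grey dots were called by edgeR, and coloured dots are members of 4 gene lists; ribosomal protein genes lie mostly below 0 at high levels, immediate early genes lie below 0 at low and middle levels, and most very long mRNAs lie above 0.

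GC content ordered the kit difference more steeply than length did. GC content was available for 12325 of the tested genes (83.8%). Genes with transcripts under 40% GC had a median log2 difference of 0.20, with 13.0% of them higher in KAPA and 1.11% lower. The median then fell from bin to bin, to 0.13, 0.03, -0.06, -0.17 and, for genes over 60% GC, -0.28, where 0.847% were higher and 20.1% lower. Each of the 3 lines showed this order, with medians from 0.15 to -0.32 in the control, 0.29 to -0.30 in line 1 and 0.16 to -0.20 in line 2. Genes called higher in KAPA had a median GC content of 42.4% and a median length of 4953 bases, and genes called lower 58.0% and 2956 bases. Across genes, which are not independent replicates, Spearman's rho of the difference was -0.43 with GC content and 0.13 with length.

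Transcripts over 8 kb had a median difference of 0.15, with 15.3% higher and 3.32% lower, while the median was -0.04 under 1 kb and -0.08 between 1 and 2 kb. Among combinations of both properties, long transcripts over 8 kb with under 45% GC had a median of 0.27 and long transcripts with over 55% GC one of -0.14. Transcripts under 2 kb stood at 0.08 with under 45% GC and at -0.22 with over 55% GC. When a smooth curve of the difference on GC content was removed, 225 genes were higher and 429 lower, against 641 and 968 for the same genes without that step.

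**Figure D2:**
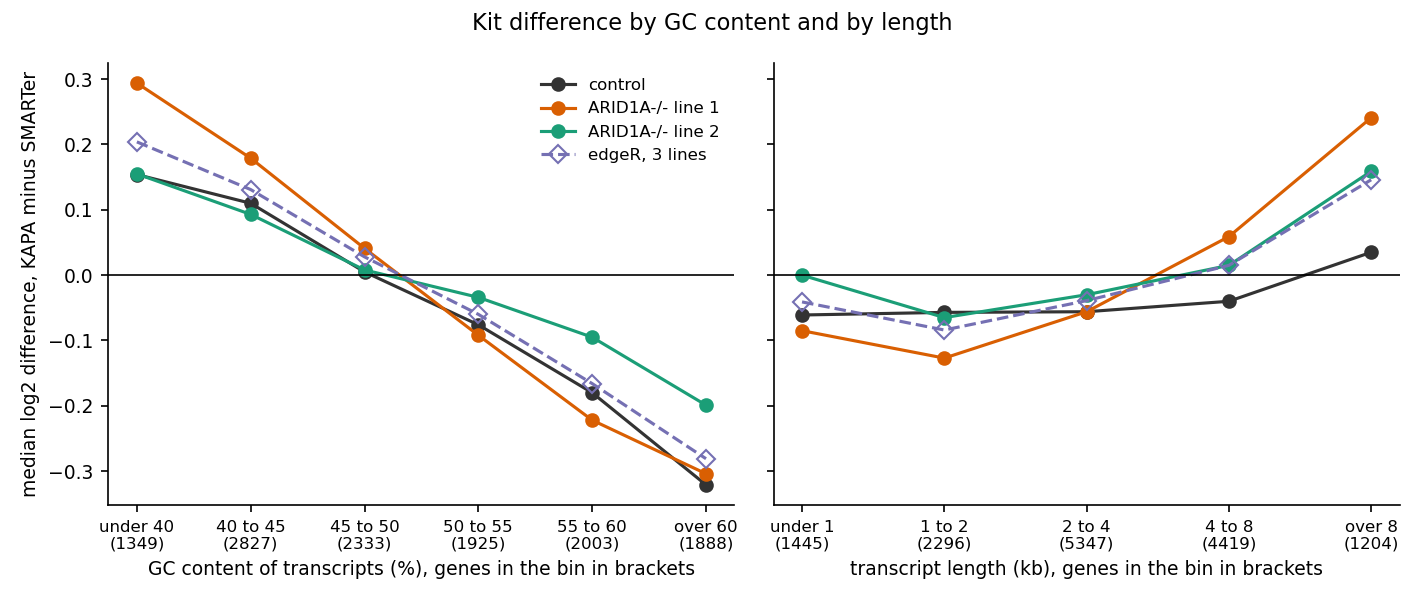
Median log2 difference, KAPA minus SMARTer, of genes in bins of transcript GC content in percent (left) and length in kb (right), with the number of genes in brackets. Filled circles are single lines, without error bars since each line has 1 pair of libraries, and open diamonds are the edgeR estimate over 3 lines; the GC medians fall in every line, and the length medians rise above 0 in all 3 lines only over 8 kb.

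Short coding stretches illustrate how single genes differ in GC content. The stretches are the first 90 bases of the longest coding exon in GENCODE 29 (GRCh38), with G and C in capitals, for a pair of genes that fell in KAPA and a pair that rose; they were chosen after their values were seen. JUND lies at chr19:18281395-18281484 on the minus strand, EGR1 at chr5:138466757-138466846 on the plus strand, HSPH1 at chr13:31151102-31151191 on the minus strand and CENPE at chr4:103159235-103159324 on the minus strand. G and C make up 67 of the 90 bases in JUND, 49 in EGR1, 31 in HSPH1 and 27 in CENPE. The whole transcripts that hold these stretches lie closer together, at 69.7%, 55.4%, 40.7% and 35.3% GC. Other genes went against this order: SLC30A1, at 38.0% GC, fell by 1.93, and IRF7, at 67.0% GC, rose by 1.07.
JUND: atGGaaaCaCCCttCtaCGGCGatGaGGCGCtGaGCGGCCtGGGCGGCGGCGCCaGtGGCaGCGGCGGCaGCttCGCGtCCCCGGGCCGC
EGR1: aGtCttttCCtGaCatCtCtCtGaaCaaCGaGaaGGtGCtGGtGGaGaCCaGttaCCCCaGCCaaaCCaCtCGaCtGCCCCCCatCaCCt
HSPH1: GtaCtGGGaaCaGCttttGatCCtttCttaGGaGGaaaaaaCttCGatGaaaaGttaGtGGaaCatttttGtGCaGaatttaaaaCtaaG
CENPE: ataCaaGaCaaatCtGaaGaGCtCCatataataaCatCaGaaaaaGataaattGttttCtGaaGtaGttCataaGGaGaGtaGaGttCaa

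Immediate early genes, which cells switch on within a short time of meeting serum, growth factors or stress and which encode AP-1 transcription factors and their regulators, were lower in KAPA. Of 30 genes listed, 20 were tested, 15 fell and none rose; FOS and MYC passed the filter on low values only through the SMARTer libraries, and without them 13 of 18 fell. The median log2 difference over the 20 was -1.24, against -0.01 for all genes tested. JUN, the core AP-1 subunit, was at 66.6, 56.0 and 96.3 RPKM with SMARTer and at 25, 25.6 and 26.9 RPKM with KAPA. The KAPA libraries thus lay close together and below all SMARTer libraries, with a log2 difference of -1.63 ± 0.13 (SE of the fit; edgeR adjusted p = 0.0079). JUND, its most abundant relative here, was at 97.7, 106 and 152 RPKM with SMARTer and 39.7, 38.7 and 54.1 RPKM with KAPA, a log2 difference of -1.58 ± 0.10 (edgeR adjusted p = 0.0079) with no overlap.

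ATF3, a stress-induced partner of AP-1, was at 9.85, 8.12 and 20.7 RPKM with SMARTer and at 3.80, 2.30 and 5.32 RPKM with KAPA. DUSP1, a phosphatase that switches off MAP kinases, was at 23.8, 26.4 and 40.1 RPKM and then at 9.29, 11.8 and 11.9 RPKM. The log2 differences were -1.89 ± 0.15 for ATF3 and -1.59 ± 0.13 for DUSP1 (edgeR adjusted p = 0.0079 for both). In each of these 4 genes line 2 was the highest SMARTer library, and the lowest SMARTer library exceeded the highest KAPA library. EGR1, a zinc-finger factor induced by serum, was at 4.44, 7.84 and 24.5 RPKM with SMARTer against 1.02, 2.45 and 2.22 RPKM with KAPA, a log2 difference of -2.60 ± 0.32 (edgeR adjusted p = 0.0136). FOS was low throughout, at 1.01, 1.12 and 2.72 RPKM against 0.103, 0.551 and 0.535 RPKM. JUNB, IER2, DUSP4, DUSP6, SPRY2, KLF10, CYR61 and SRF fell as well, with log2 differences from -0.38 (SRF) to -1.87 (CYR61), and MYC had one of -1.29.

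The 5 that were not called, FOSL2, IER5, KLF4, KLF6 and NR4A1, had log2 differences of -1.03, -0.45, -0.82, -0.45 and -0.41. In the control and in line 2, 19 of the 20 genes were below 0, and in line 1 all 20 tested. The exceptions were KLF6 in the control (0.06) and FOSL2 in line 2 (0.11). With the ARID1A+/- library, also made with KAPA, JUN stood at 22.1 RPKM and JUND at 53.6 RPKM, whereas KLF4 stood at 17.0 RPKM, above all 6 paired libraries. The median GC content of the list was 55.1%. With the GC curve removed, 10 of the 20 were lower, against 14 in the same set of genes without it, while the list median was -1.17 against -1.24. Without the line 2 pair 7 were lower, with a median of -1.33.

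**Figure D3:**
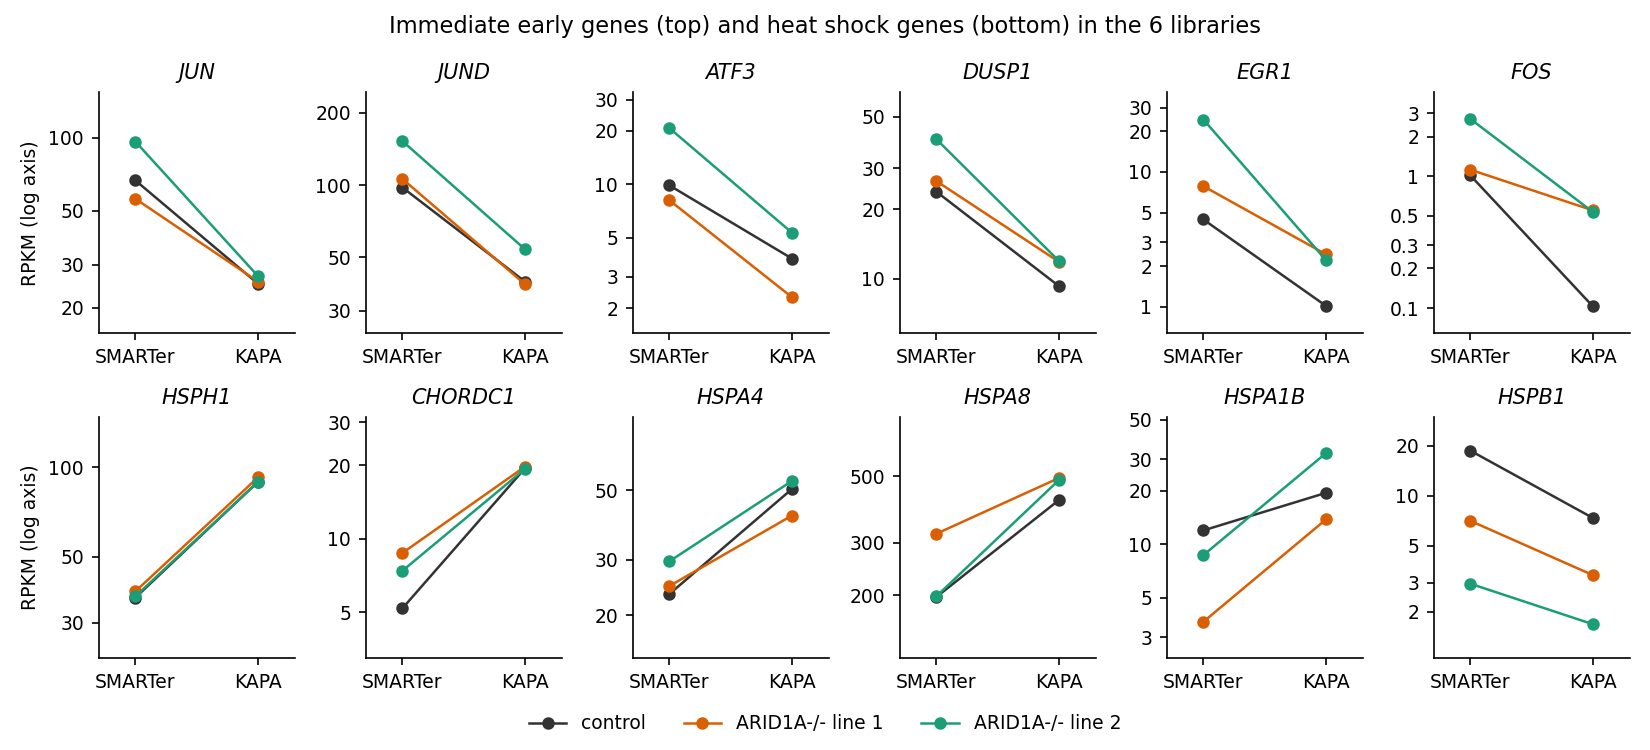
RPKM on log axes for 6 immediate early genes (top) and 6 heat shock genes (bottom); each line joins the SMARTer and the KAPA library of 1 cell line, so that each point is 1 library. All 6 immediate early genes are lower in KAPA in all 3 lines, and of the heat shock genes HSPB1 is lower and the other 5 are higher.

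Heat shock genes, which encode chaperones that hold or refold proteins under the control of HSF1, moved the other way. Of 18 listed, 15 were tested, 7 rose and HSPB1 fell, with a median log2 difference of 0.48. HSPH1, a nucleotide exchange factor of HSP70, was at 36.4, 38.2 and 36.8 RPKM with SMARTer and at 89.5, 92.6 and 89.4 RPKM with KAPA. Within a kit the 3 lines were almost level, and HSPH1 rose by 1.11 ± 0.09 (edgeR adjusted p = 0.0079). CHORDC1, an HSP90 cochaperone, was at 5.20, 8.76 and 7.41 RPKM and then at 19.5, 19.8 and 19.4 RPKM, a log2 difference of 1.32 ± 0.16 (edgeR adjusted p = 0.0133).

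HSPA8, the constitutive HSP70 and a snoRNA host, was at 198, 321 and 199 RPKM with SMARTer and 416, 493 and 485 RPKM with KAPA, a log2 difference of 0.82 ± 0.16 (edgeR adjusted p = 0.0284). HSPA1B, a stress-induced HSP70 whose reads can be shared with the near-identical HSPA1A, was at 12, 3.67 and 8.69 RPKM against 19.4, 13.8 and 32.5 RPKM. HSPA4, DNAJA1 and HSPD1 rose by 0.73, 0.43 and 0.49. HSPB1, a small heat shock protein, was at 18.7, 7.05 and 2.95 RPKM with SMARTer and 7.34, 3.32 and 1.68 RPKM with KAPA: it was lower with KAPA in each line (edgeR adjusted p = 0.0193), but the spread between lines was larger than the kit difference. DNAJB1, a cochaperone often used as a readout of HSF1, was not called (0.48 ± 0.26, edgeR adjusted p = 0.241), with line differences of -0.36, 0.71 and 1.09. After removal of the GC curve 4 of the 15 were higher and 1 lower, with a median of 0.47. Without the line 2 pair 2 were higher and 1 lower, with a median of 0.45.

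Both lists have well-known promoter elements, and these were counted in RefSeq windows (GRCh38.p14) from 250 bases before to 50 bases after a start site. The heat shock element GAANNTTC, read on both strands, was in the windows of 9 of 14 heat shock genes (64.3%), among 6.48% of tested genes and 8.21% of all 27305 genes with a window. The 9 genes include HSPB1, which fell, and HSP90AB1, at 0.09 ± 0.11 (edgeR adjusted p = 0.6). The CArG box, bound by SRF, was in the windows of 2 of 16 immediate early genes, EGR1 and SRF, among 1.56% of tested genes, and the cyclic AMP element TGACGTCA in those of DUSP1 and JUND, among 3.98%. A match describes the sequence and shows no binding. The heat shock element and the CArG box were added after the values had been seen. The windows printed are 150 bases that end at the start site, with the matches in capitals: EGR1 at chr5:138465329-138465478 (plus strand, 2 CArG boxes), HSPA1B at chr6:31827588-31827737 (plus strand, 1 heat shock element) and DNAJB1 at chr19:14518398-14518547 (minus strand, 2 heat shock elements).
EGR1: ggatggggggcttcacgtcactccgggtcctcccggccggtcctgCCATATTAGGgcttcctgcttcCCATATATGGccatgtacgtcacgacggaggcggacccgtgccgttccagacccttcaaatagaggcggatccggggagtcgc
HSPA1B: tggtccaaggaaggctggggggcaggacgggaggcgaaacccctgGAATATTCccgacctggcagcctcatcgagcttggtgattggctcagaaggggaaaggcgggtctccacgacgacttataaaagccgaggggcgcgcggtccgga
DNAJB1: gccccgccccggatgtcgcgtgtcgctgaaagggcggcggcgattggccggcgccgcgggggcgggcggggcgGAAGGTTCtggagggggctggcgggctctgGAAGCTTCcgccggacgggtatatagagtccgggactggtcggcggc

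Among RNA classes, the list of mitochondrially encoded transcripts showed the largest loss in KAPA. Its only tested entries from the mitochondrial genome were cytochrome b and MTND5, so the result does not cover that genome as a whole. Mitochondrial mRNAs carry short poly(A) tails and encode subunits of the respiratory chain. The entry named cytochrome b was at 5827, 7388 and 5240 RPKM with SMARTer and at 2020, 2185 and 1802 RPKM with KAPA, a log2 difference of -1.78 ± 0.13 (edgeR adjusted p = 0.0079). MTND5, a complex I subunit, was at 2282, 3166 and 2300 RPKM against 1057, 1155 and 1149 RPKM and fell by 1.36 ± 0.14 (edgeR adjusted p = 0.0106). The kits did not overlap, and line 1 was the highest SMARTer library for both entries. Of the 11 entries matched by the list, 7 were under the filter, and the remaining pair, MTRNR2L2 and MTRNR2L8, are nuclear copies that resemble mitochondrial ribosomal RNA and can share its reads; their log2 differences were -1.47 and -0.77. The 11 entries, nuclear copies included, took 0.917%, 1.19% and 0.862% of the counts with SMARTer and 0.362%, 0.393% and 0.348% with KAPA. The log2 ratio of shares was -1.42 ± 0.16 (SD, n = 3 lines), and an exact sign-flip permutation test on 3 pairs cannot go below 0.25, the value it gave. Calls among nuclear-encoded genes of oxidative phosphorylation were evenly split: 4 of 79 rose and 4 fell, with NDUFB2 up by 1.05 and NDUFA7 lower at -0.72. The lines differed, with 52 of the 79 above 0 in the control, 19 in line 1 and 37 in line 2.

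Cytosolic ribosomal protein genes, short and among the most abundant mRNAs, were lower in KAPA. Of 84 tested, 52 fell (61.9%) and none rose, 78 were below 0, and the median log2 difference was -0.51. RPL23A was at 784, 487 and 402 RPKM with SMARTer and 389, 310 and 241 RPKM with KAPA, a log2 difference of -0.97 ± 0.11 (edgeR adjusted p = 0.0124), and RPS24 fell by 0.97 as well. The control was the highest library with each kit, and the kits did not overlap for RPL23A by a narrow margin. Together the 88 listed entries took 8.03%, 4.91% and 5.33% of the counts with SMARTer and 5.42%, 4.42% and 4.0% with KAPA. These genes share reads with many processed pseudogenes. The count fell to 31 with a length curve removed, to 29 of 83 with the GC curve, to 14 of 83 with both, to 1 without the line 2 pair and to 4 after quantile normalization, where the median was -0.18; in the other 4 of these fits the median lay between -0.46 and -0.51. Without the line 1 pair 66 fell. Mitochondrial ribosomal proteins, encoded in the nucleus, were balanced in their calls, with 3 of 75 higher and 3 lower (4.0% each). By line, 58 of the 75 were above 0 in the control, 31 in line 1 and 47 in line 2.

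Very long mRNAs were higher in KAPA. Of 34 tested, 19 rose (55.9%) and NAV2 fell, with a median log2 difference of 0.51. DST, which encodes a giant linker of the cytoskeleton, was at 5.02, 5.34 and 8.20 RPKM with SMARTer and 10.4, 12.5 and 15.9 RPKM with KAPA, a log2 difference of 0.91 ± 0.10 (edgeR adjusted p = 0.0106). MDN1, an AAA protein of ribosome assembly, was at 7.01, 6.53 and 7.17 RPKM against 13.7, 13.4 and 14.8 RPKM, and ASPM, a spindle pole protein, at 11, 25.2 and 11.6 RPKM against 30.1, 50.3 and 28.1 RPKM. All KAPA libraries exceeded all SMARTer libraries for each of these genes. HERC1 rose by 0.91, and AKAP13, which is outside the list, by 1.61. The list took 0.395%, 0.599% and 0.480% of the counts with SMARTer and 0.687%, 0.943% and 0.888% with KAPA. With a length curve removed, 7 were higher and 2 lower, with a median of 0.17. Other mRNAs listed as short, with a median deposited length of 876 bases, did not fall as a group. Of 27 tested, 3 rose (DYNLL1, SEC61G and ROMO1) and PFDN5, with a deposited length of 2107 bases, fell. Here too the lines differed, with 22 above 0 in the control, 10 in line 1 and 18 in line 2.

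Replication-dependent histone genes, whose mRNAs end in a stem-loop, were low with both kits. The 69 entries took 0.0234%, 0.0343% and 0.0167% of the counts with SMARTer and 0.0180%, 0.0508% and 0.0152% with KAPA. Of 54 tested, 1 rose and 1 fell (1.85% each, under the 5.3% and 7.99% of all genes tested), and 4 passed the filter only through KAPA. HIST1H4D was at 0.749, 0.987 and 0.401 RPKM with SMARTer and 2.12, 3.59 and 1.51 RPKM with KAPA, a log2 difference of 1.56 ± 0.33 (edgeR adjusted p = 0.0331). HIST2H2BE, one of 8 histone genes known to give poly(A) mRNA, was at 11, 15.5 and 11.3 RPKM against 5.46, 11.5 and 4.94 RPKM and fell by 1.04 ± 0.16 (edgeR adjusted p = 0.0196), with line 1 of KAPA inside the SMARTer range. Line 1 had the highest share with each kit. Of 11 variants made outside S phase, H3F3B, H1F0 and H1FX fell and H2AFZ rose by 0.50. The entry RNA5-8S5, which spans the ribosomal RNA unit, held 1771, 1462 and 1444 RPKM with SMARTer and 1763, 1872 and 1585 RPKM with KAPA, a difference of -0.01 ± 0.16 (edgeR adjusted p = 0.978).

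The share of long non-coding RNAs called differed between lists. Of 70 tested LINC entries, 9 fell (12.9%) and 1 rose; 4 of the 70 passed the filter only through SMARTer, and among the 65 that passed with both kits 6 fell. Of 209 antisense entries 16 fell (7.66%, close to the 7.99% of all genes) and 3 rose, and of 16 named RNAs, 8 of them below 0, FTX, MIAT, MEG3 and GABPB1-AS1 fell. With limma on log2(RPKM + 1), 4 LINC entries were higher and 4 lower, and 16 antisense entries were higher and 10 lower. FTX, which lies in the X-inactivation centre, was at 7.37, 7.27 and 5.31 RPKM with SMARTer and 4.65, 4.28 and 3.62 RPKM with KAPA, a log2 difference of -0.83 ± 0.12 (edgeR adjusted p = 0.0186), and MEG3, an imprinted RNA, fell by 0.81. LINC00290 was at 1.70, 16.9 and 3.77 RPKM against 0.691, 1.59 and 1.11 RPKM, with line 1 far above the others in SMARTer only. Summed shares of counts hardly moved: LINC entries took 0.0954% to 0.102% with SMARTer and 0.0906% to 0.102% with KAPA. Antisense entries that overlap a gene, such as GATA3-AS1 at -0.69, cannot be told from it where strand was not used, and whether it was is not given in the sources used here.

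Genes that host small nucleolar RNAs in their introns fell in 8 of 35 cases (22.9%), and HSPA8 rose. ZFAS1 was at 84.6, 33 and 37.4 RPKM with SMARTer and 43.1, 28.5 and 21.0 RPKM with KAPA, a log2 difference of -0.84 ± 0.16 (edgeR adjusted p = 0.0263), and EPB41L4A-AS1 fell by 1.25. SNHG1, SNHG11 and SNHG15 were among the others. With the GC curve removed 3 of 34 host genes were lower, while their median was -0.19 against -0.15 without that step. With limma on log2(RPKM + 1) 4 host genes were higher and 3 lower. Entries of small RNAs themselves were seldom called. Of 184, 4 were higher (2.17%) and 6 lower (3.26%), under the 5.3% and 7.99% of all genes tested. SNORA27 stood at -0.91 and SNORA40 at 2.17, and reads over such short entries may come from the host RNA. SNORA40 had only 1.44, 0.951 and 0.773 RPKM over 127 bases with SMARTer, which rests on few reads. Of 150 microRNA entries 6 rose (4.0%) and 1 fell (0.667%), also under the shares of all genes tested. Reads over these short entries come from longer RNA, so they do not measure mature microRNA. MIR1244-1 (1.67) and MIR636 (-1.37) are given only as entries.

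**Figure D4:**
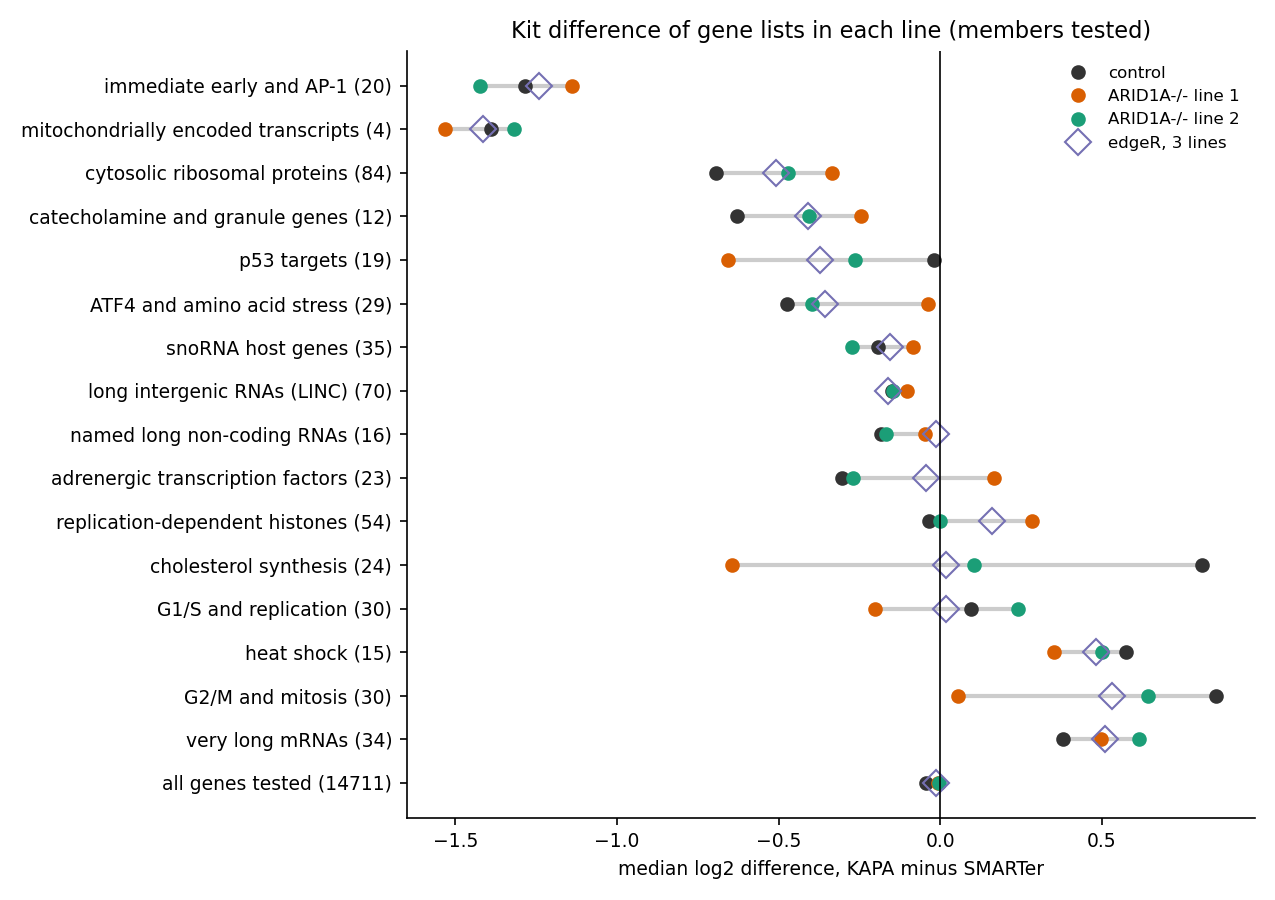
Median log2 difference, KAPA minus SMARTer, of 16 gene lists and of all genes tested, with the number of members tested in brackets. Filled circles are single lines (1 pair each), grey bars join them and open diamonds are the edgeR estimate over 3 lines; immediate early and mitochondrial lists lie below -1 in each line, and cholesterol synthesis runs from 0.81 in the control to -0.64 in line 1.

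Of 30 tested genes of the G2 phase and mitosis, 11 rose in KAPA and none fell, with a median log2 difference of 0.53. CENPE, CENPF and MKI67, which all rose, are also counted among the very long mRNAs, so the 2 lists are not separate. CENPE, a kinetochore motor, was at 13.0, 22.4 and 16.7 RPKM with SMARTer and at 31.2, 39.6 and 33.3 RPKM with KAPA, a log2 difference of 0.86 ± 0.12 (edgeR adjusted p = 0.0159). CDK1, the mitotic kinase, was at 15.2, 26.8 and 17.7 RPKM against 31.1, 42.2 and 34.7 RPKM, and MKI67, the Ki-67 antigen, at 13.6, 27.4 and 18.4 RPKM against 28, 41.9 and 35.8 RPKM. For these genes line 1 was the highest library with each kit and had the smallest kit difference. The list median was 0.85 in the control and 0.64 in line 2, where all 30 were above 0, and 0.06 in line 1, where 18 were. Without the line 1 pair 29 were higher. With the GC curve removed 2 were, while the list median was 0.47 against 0.53 for the same genes without that step. Of 30 genes of G1/S and DNA replication, CLSPN rose and CDT1 and E2F1 fell, and 17, 5 and 24 were above 0 in the control, line 1 and line 2.

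Cholesterol synthesis genes, which SREBP2 raises when sterols are scarce, went in opposite directions in different lines. Of 24 tested, SREBF2, which encodes SREBP2, fell by 0.64 ± 0.13 (edgeR adjusted p = 0.0305) and no gene rose. The share that fell was 4.17%, against 7.99% of all genes tested. In the control 20 of 24 were above 0, in line 2 14, and in line 1 only 2, with medians of 0.81, 0.10 and -0.64. MSMO1, a sterol oxidase, was at 6.39, 13.3 and 18.2 RPKM with SMARTer and 23.5, 14.2 and 30.3 RPKM with KAPA, so that the control was lowest with SMARTer and line 1 lowest with KAPA. Its line differences were 1.69, -0.12 and 0.63, and it was not called (edgeR adjusted p = 0.157). Without the line 1 pair 7 genes were higher and 1 lower, and without the control pair the median was -0.22. With 1 pair per line, the difference between the lines was not tested. FASN of fatty acid synthesis had line differences of 0.96, -0.04 and 0.38 and was not called (edgeR adjusted p = 0.168).

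**Figure D5:**
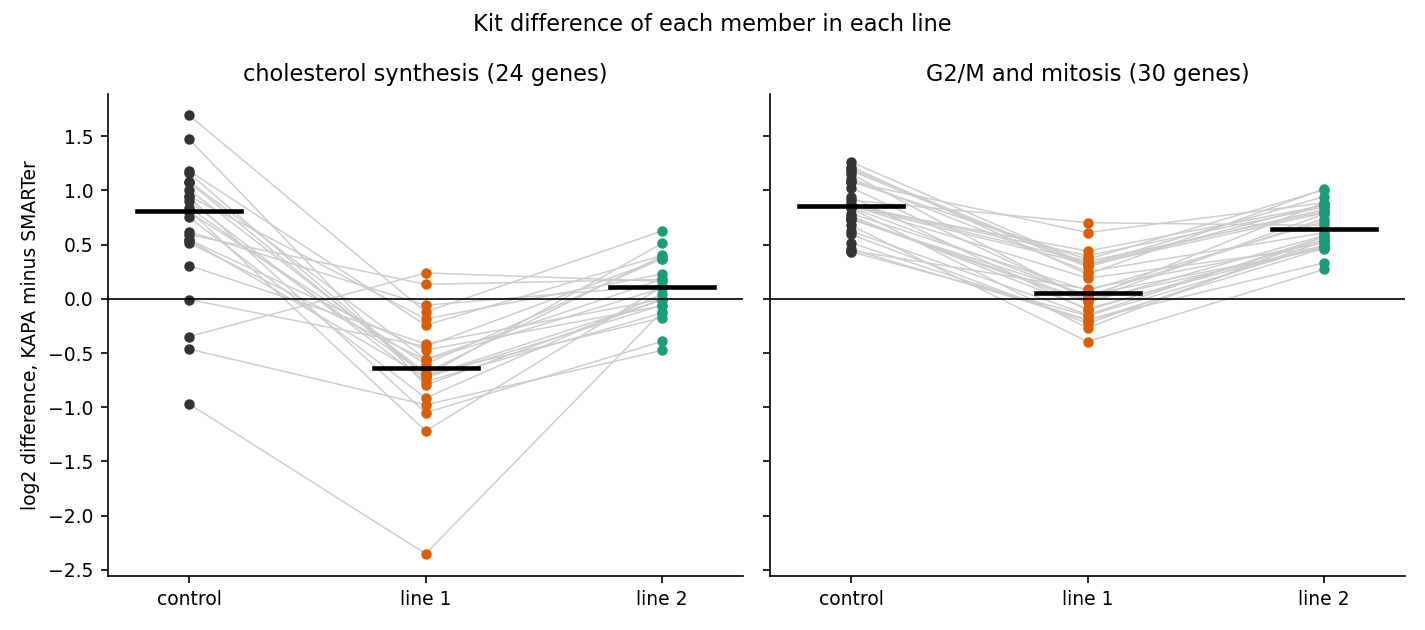
Log2 difference, KAPA minus SMARTer, of each tested gene of cholesterol synthesis (left, 24 genes) and of G2/M (right, 30 genes) in the control, line 1 and line 2; grey lines join a gene and black bars are medians. Cholesterol genes lie mostly above 0 in the control (20) and below 0 in line 1 (22), and G2/M genes are all above 0 in the control and line 2 but not in line 1 (18 of 30).

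Of 29 tested genes listed for ATF4, the factor of the amino acid and integrated stress response, 9 fell in KAPA and none rose. The 9 include ATF4 itself and ATF3, which is counted among the immediate early genes too. The median was -0.36, with line medians of -0.47, -0.04 and -0.40, and in line 1 13 genes were above 0 and 16 below. ATF4 was at 226, 158 and 245 RPKM with SMARTer and 139, 119 and 171 RPKM with KAPA, a log2 difference of -0.71 ± 0.10 (edgeR adjusted p = 0.018). TRIB3, a pseudokinase induced by ATF4, was at 7.40, 2.08 and 8.64 RPKM against 2.17, 1.11 and 2.48 RPKM, and CHAC1, which degrades glutathione, at 3.91, 1.36 and 9.29 RPKM against 1.34, 0.764 and 2.77 RPKM. Their log2 differences were -1.68 ± 0.21 and -1.58 ± 0.23 (edgeR adjusted p = 0.0136 and 0.0186), and line 1, lowest with both kits, had the smallest difference. DDIT3, SESN2, ATF5, STC2 and SLC3A2 fell too. The motif TGATGCAA, read on both strands, lay in 2 of 24 promoter windows of the list, among 0.64% of tested genes.

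Of 19 p53 targets 4 fell (21.1%), and the median GC content of the list was 53.5%. GADD45A, BBC3, BTG2 and CDKN1A stand at 57.1%, 64.5%, 51.1% and 58.6% GC. GADD45A, BBC3 and BTG2 fell (-1.25, -1.76 and -0.67), and CDKN1A, the p21 inhibitor of cyclin-dependent kinases, was at 40.1, 26.6 and 37.6 RPKM with SMARTer and 31.7, 5.47 and 13.8 RPKM with KAPA, a log2 difference of -1.51 ± 0.34 (edgeR adjusted p = 0.0369). The KAPA control lay inside the SMARTer range, and the line differences ran from -0.52 in the control to -2.49 in line 1. Among FOXO and glucose-sensing genes 5 of 15 fell, among them IRS2 (-1.37) and the ubiquitin ligase gene FBXO32 (-1.27), and CCNG2 rose by 0.54. ALDOC and ENO2 of glycolysis fell (-1.44 and -1.06), and of 18 hypoxia genes VEGFA fell by 1.11. SLC30A1, which exports zinc, was at 20.2, 14.2 and 17.1 RPKM with SMARTer and 3.93, 6.39 and 4.92 RPKM with KAPA and fell by 1.93 ± 0.23, whereas SLC39A10, which imports it, was at 8.74, 7.52 and 12.4 RPKM against 22.6, 14.0 and 22.3 RPKM and rose by 0.87 ± 0.13 (edgeR adjusted p = 0.0125 and 0.0181).

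Neuroblastoma cells are described as adrenergic, with noradrenergic lineage factors, or mesenchymal, and single genes of both states differed between the kits. Of 23 adrenergic transcription factors 5 fell (21.7%) and none rose. Median GC content of the list was 53.5%, against 49.2% for all genes tested. Among all tested genes with 50 to 55%, 55 to 60% and over 60% GC, 8.94%, 13.4% and 20.1% were lower. PHOX2A, HAND1, GATA3 and MYCN stand at 65.5%, 57.4%, 56.8% and 53.4% GC. The list median of -0.04 was near the -0.01 of all genes tested, and 8 were above 0 in the control, 14 in line 1 and 6 in line 2. MYCN, the amplified oncogene of these cells, was at 3663, 1435 and 2343 RPKM with SMARTer and 1226, 1063 and 606 RPKM with KAPA, a log2 difference of -1.5 ± 0.27 (edgeR adjusted p = 0.0258). Line 1 had the smallest difference (-0.65), and line 2 went from above line 1 with SMARTer to below it with KAPA. PHOX2A, which drives noradrenergic identity, was at 307, 349 and 437 RPKM against 131, 220 and 231 RPKM, and GATA3 at 142, 129 and 154 RPKM against 70.8, 83.8 and 85.7 RPKM; their log2 differences were -1.11 ± 0.13 and -0.996 ± 0.11 (edgeR adjusted p = 0.0122 and 0.0106). HAND1 and INSM1 were the others.

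Of 12 genes of catecholamines and secretory granules, PCSK1N, SCG2 and SCG3 fell. SCG2, a granule protein, was at 69.7, 81.5 and 88.2 RPKM with SMARTer and 26.1, 45.3 and 36.3 RPKM with KAPA, a log2 difference of -1.35 ± 0.13 (edgeR adjusted p = 0.00879). Among 30 neuronal genes VAMP2, SYN1, STMN2 and SYP fell (-0.59 to -1.11), and DPYSL2 rose. The 4 that fell stand at 56.0%, 59.1%, 44.5% and 57.7% GC. Median GC content was 50.8% for this list and 51.5% for the matrix list that follows. Of 26 mesenchymal and matrix genes 3 rose (S100A11, FN1 and COL4A1) and 4 fell (COL5A1, COL6A1, COL6A2 and ANXA2); COL5A1 passed the filter only through SMARTer, and without it 3 fell. S100A11, a calcium-binding protein, was at 1.93, 5.25 and 0.0410 RPKM with SMARTer and 10.8, 23.8 and 0.291 RPKM with KAPA, the largest rise among the protein-coding genes named at 2.14 ± 0.25 (edgeR adjusted p = 0.0122). ANXA2, which binds a protein of the same family, went the other way, from 2.87, 1.86 and 1.26 RPKM to 1.28, 0.518 and 0.271 RPKM, a log2 difference of -1.86 ± 0.27 (edgeR adjusted p = 0.018). For both genes the lines kept their order with either kit. S100A11 in line 2 was near 0 with both kits, so its difference of 1.07 there rests on few reads. ID1, ID2, AMOTL2 and CYR61, targets of TGF-beta family or YAP signalling, fell (-0.97 to -1.87), and LTBP1 rose by 0.97. Among 30 BAF subunits PBRM1 rose by 0.52 and ACTL6B and BCL7B fell (-0.63 and -0.47). These calls are 3.33% and 6.67% of the list, under the 5.3% and 7.99% of all genes tested. ARID1A was not called (-0.17 ± 0.09, edgeR adjusted p = 0.216).

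The other large rises were those of PHLDB2, STX7, LRIG3, MAP2K6, HSPA1L and PPIAL4G. MAP2K6, a kinase upstream of p38, was at 1.62, 1.58 and 1.63 RPKM with SMARTer and 4.23, 4.74 and 5.52 RPKM with KAPA, a log2 difference of 1.41 ± 0.15 (edgeR adjusted p = 0.0106). PPIAL4G belongs to a family of cyclophilin A copies and HSPA1L to the HSP70 genes, so their reads may come from relatives. Antisense, LINC, small RNA and systematically named entries left out, as for the rises, the largest falls were those of TPBGL, IL17B, TMEM130, KLK4, EGR1, FEV, CAMK2B, HES4, MEF2B and FOS. Of these, TPBGL, IL17B, TMEM130, KLK4, MEF2B and FOS had a KAPA mean under 0.5 RPKM and passed the filter only through SMARTer, as PHLDB2 among the rises, with a SMARTer mean of 0.257 RPKM, passed only through KAPA. TPBGL was at 4.07, 2.35 and 2.41 RPKM against 0.789, 0.325 and 0.210 RPKM, a log2 difference of -3.03 ± 0.27 (edgeR adjusted p = 0.00823). HES4, a transcriptional repressor, was at 11, 3.16 and 1.70 RPKM against 2.75, 0.754 and 0.366 RPKM; its line differences of -2.14, -2.14 and -2.05 were nearly equal while its level differed between lines.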

How the data were processed

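The authors deposited 1 table per library with whole-number read counts, a transcript length and an RPKM value for each gene symbol. The submitters' processing notes name HISAT2 2.1.0 and the build hg19; no source used here gives the counting tool or its strand setting. The deposited RPKM was recomputed from counts, lengths and column totals and deviated by at most 0.000501%. Counts were fitted with edgeR 4.0.16 (quasi-likelihood, TMM factors, R 4.3.3) with terms for line and kit, on 14711 entries with a mean of at least 0.5 RPKM, and p-values were adjusted over all of them at a threshold of 0.05. The line term is the pairing: both libraries of a pair come from the same cell line. Differences of single lines are on the log2(CPM + 0.1) scale after TMM. RPKM values are the deposited ones, so the kit difference of a gene is set by TMM and not by the ratio of RPKM alone. The position of the ARID1A+/- library was read on median-centred log2(RPKM + 0.1). GC content came from GENCODE 29 transcripts matched by symbol, and promoter windows from RefSeq.

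The comparison, its 47 gene lists and its tests were chosen with earlier results of these data known. The lists overlap: ATF3, CYR61, KLF10, HSPA8, CENPE, CENPF and MKI67, for example, are each counted in several of them. Named genes were the 10 largest rises and falls with the same sign in 3 lines and at least 1 RPKM in either kit, without antisense, LINC, pseudogene, small RNA and systematically named entries, members with the 4 smallest p of each list, and the 5 genes of at least 5 RPKM whose line differences were furthest apart. Other members of the immediate early, heat shock, ATF4, FOXO, snoRNA host, mitochondrial, adrenergic, neuronal, mesenchymal, TGF-beta, G2/M and long mRNA lists, ARID1A and MYCN were named after their values were seen. RRNAD1, a protein gene, was taken off the ribosomal RNA pattern. Alternatives were RLE and upper-quartile factors, DESeq2 1.42.0, limma 3.58.1 on log2(RPKM + 1) and smaller pseudocounts, quantile normalization, other filters and totals, a length curve, no pairing, leaving out each pair, and, added after seeing the data, curves on GC content. The fit was tested on simulated data. Intervals for shares of counts would cover counting error only and are not given.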

Additional observations from a re-analysis of the deposited data

Results flagged for a closer look

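For 5 genes of at least 5 RPKM the kit difference had opposite signs in different lines; with 1 pair of libraries per line, the difference between lines was not tested. They were the genes furthest apart between the lines, so large gaps are part of their choice. The log2 difference, KAPA minus SMARTer, of ENPP2, which encodes the lysophospholipase autotaxin, was -1.17 in the control, 2.36 in line 1 and -2.31 in line 2. In line 1 its level went from 9.37 to 56.0 RPKM. TMEM163 stood at -0.65, 2.19 and -1.81. NEUROG2, a neurogenic transcription factor, stood at -1.69, 1.40 and -2.18, and RPRM, a p53-regulated cell cycle inhibitor, at -1.87, 0.78 and -2.51. CXCL12, a chemokine, had the reverse order, 0.26, -1.34 and 1.79. In 4 of the 5 genes line 1 was the line that was higher in KAPA, and in CXCL12 it was the one that was lower.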

How the results depend on the processing

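Against 779 genes higher and 1175 lower in KAPA, the fit without the pairing by line (no replicate block) called 0 and 0. Leaving out each pair in turn gave 0 to 1163 higher and 0 to 1753 lower, with 0 without the control pair and the highest counts without line 1; each such fit has 1 residual degree of freedom per gene. Limma called 1971 and 609 on log2(RPKM + 1), 1991 and 621 with a pseudocount of 0.5 and 1966 and 615 with 0.1, where the median of all genes moved to 0.12, 0.14 and 0.15. Removing the GC curve left 225 and 429, and removing GC and length curves 181 and 394; both test fewer genes, of which 641 and 968 were called without a curve. The other settings stayed within 1.5 times, and in no setting was a called gene called the other way. Of 4048 values of 227 named genes under the alternatives, 3306 kept their side of the threshold, 647 lost the call, 94 gained it and 1 turned: H1FX, at 0.014 with GC and length curves. RPKM near the filter of 0.5 is limited by depth, and the KAPA libraries are the shallower ones.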

Other observations

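Interferon response genes were few in these cells: 8 of 19 were tested, 3 of them (IFIT1, USP18 and IFITM3) only through the KAPA libraries. IRF7, a transcription factor of the interferon response, was at 0.557, 0.739 and 0.585 RPKM with SMARTer and 1.31, 1.43 and 1.71 RPKM with KAPA, a rise of 1.07 ± 0.24 (edgeR adjusted p = 0.0384), with 67.0% GC. Subunits of RNA polymerase I and the pyrimidine enzyme CAD were the 3 that rose among 25 genes of MYC targets and ribosome biogenesis: POLR1A by 0.65, POLR1B by 0.43 and CAD by 0.47. Of 422 zinc-finger genes 21 rose (4.98%) and 19 fell (4.5%), under the 5.3% and 7.99% of all genes tested. In line 1, 301 were above 0, against 200 in the control and 216 in line 2.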
